A study of Mus musculus with 4 samples.

Results

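Interleukins, tumour necrosis factor (TNF) superfamily proteins and colony-stimulating factors (CSFs), together with their receptors, were described in AML12 cells, an established mouse hepatocyte line. The members were the genes of the deposited table whose symbol begins with Il and a digit, Tnfsf, Tnfrsf, or Csf and a digit, or is Tnf, Lif, Lifr, Osm or Osmr. This gave 68 of 13422 genes. They were 26 ligands, counting the secreted antagonists Il18bp and Il1rn among them, 41 receptor chains, and Il4i1, which encodes an enzyme. Tnf, Osm, Il1b, Csf1r and Csf2rb had no row and are not among the 68, so no values are given for them. PolyA-selected RNA was sequenced from 2 libraries of cells given a PAV-TBG-P2A-GFP-Chrna4 plasmid (Chrna4 1 and Chrna4 2) and from 2 libraries of cells given a pCMV6-AC-GFP plasmid (Control 1 and Control 3). Chrna4 encodes a subunit of nicotinic acetylcholine receptors. The letters TBG in a plasmid name usually stand for a liver-specific promoter and CMV for a viral one, so the plasmids differ in more than the insert. All libraries came from the same line, of the CD-1 strain and known to carry a transgene for the growth factor TGF-alpha, grown in DMEM/F12 with insulin, transferrin, selenium, dexamethasone, serum and antibiotics. The labels do not say that replicates were separate cultures, so the p-values cover only how far these 4 libraries vary, and that variation may be technical.

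Interleukins, TNF superfamily proteins and CSFs are the messengers through which cells of a tissue signal to one another, and each acts on a receptor built from a few chains, some shared by several ligands. Hepatocytes answer ligands of the interleukin 6 family, which signal through the shared chain gp130, with the acute-phase response, and they carry receptors for TNF and for the death ligand TRAIL. Secreted antagonists and decoy receptors hold the same pathways in check.

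The libraries had 31301396 to 32228360 reads on listed genes. Chrna4 itself received 2678 and 2290 reads in the Chrna4 libraries, against 1 and 3 in the Control libraries. Levels are given in CPM, the deposited unit, in which a gene's reads are divided by the scaled size of their library. The epithelial genes Krt8 and Krt18 and the hepatocyte factor Hnf4a each had at least 217 CPM in all libraries, whereas Alb was at 7.93 and 8.52 CPM in Chrna4 libraries and at 17.8 and 19.0 CPM in Control libraries. Of the 10 hepatocyte markers, Apoa2 and Tf had no row in the table, and Apoa1 and Serpina1a were under 1 CPM in all libraries. Of the 6 hepatocyte markers tested, 3 were lower in Chrna4 libraries at an adjusted p under 0.05 by limma. So were 4 of 5 bile duct and progenitor markers, against 6.66% of all tested genes. The 5 bile duct and progenitor genes summed to 1161 and 1136 CPM in Chrna4 libraries and to 1586 and 1670 CPM in Control libraries. Their part in the cytokine results was not tested, and in bulk RNA fewer cells of a type and less RNA per cell cannot be told apart. Of markers of other cells, 3 of 8 macrophage, 1 of 9 lymphocyte, 1 of 6 endothelial and 1 of 8 stellate cell genes had a row in the table. Ptprc, the leukocyte marker, was at 0.0633 to 0.247 CPM. The summed macrophage markers, nearly all Cd14, stood at 96.5 and 101 CPM in Chrna4 libraries and at 93.0 and 98.3 CPM in Control libraries.

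Of the 68 members, 47 had a mean of at least 1 CPM and were tested. In the Chrna4 libraries 17 rose and 1, Il33, fell. That is 38.3% of the tested members past an adjusted p of 0.05 by limma, against 15.9% of all 11298 genes tested (9.26% higher and 6.66% lower). Among the 14 ligands and antagonists tested, 7 rose and 1 fell, with a median log2 fold change of 0.67. Of 32 receptor chains tested, 10 rose and the other 22 did not pass, with a median log2 fold change of 0.15. The median over all genes tested was -0.0028. Among the tested members the largest increases were those of Tnfsf10, the TRAIL ligand gene, at 4.91-fold, of Csf2 at 4.41-fold and of Il18bp at 3.40-fold, with Csf2 reaching the minimum only through its Chrna4 libraries. Both Chrna4 libraries lay above both Control libraries for 27 of the 47 and below them for 8, against 28.7% and 28.8% of all tested genes. Without Chrna4 1 the members that rose were 11 and without Chrna4 2 they were 10, while the members that fell were 3 without Control 1 and 2 without Chrna4 1.

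**Figure D1:**
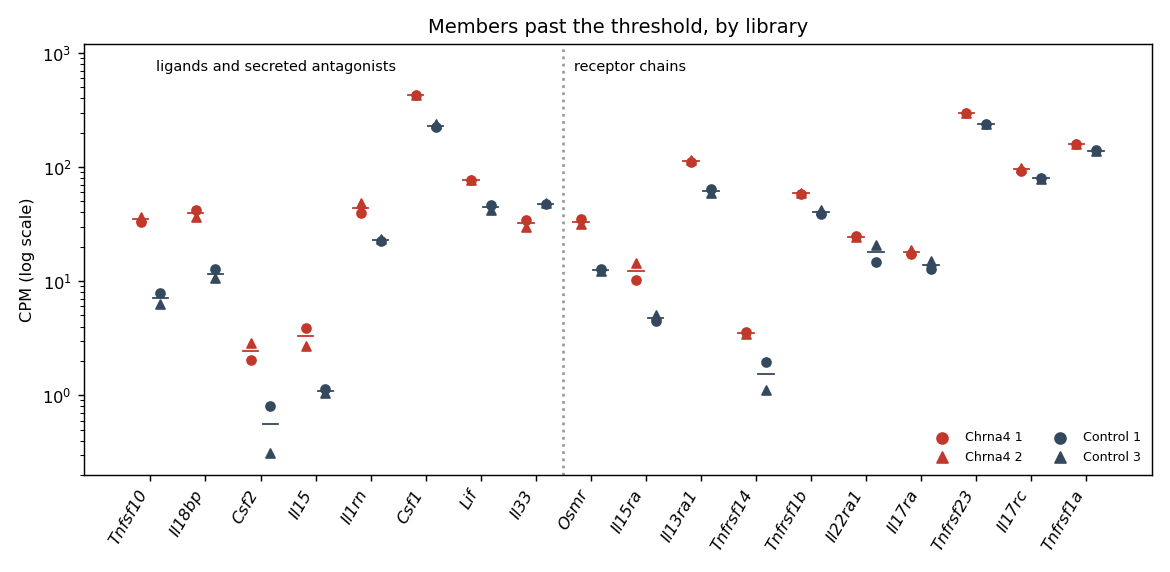
CPM on a log scale (vertical axis) of the 18 members past the threshold, in each library; red marks are Chrna4 libraries, dark marks Control libraries, short lines group means, and the dotted line parts ligands from receptor chains. Il33 is the 1 gene whose Chrna4 libraries lie below its Control libraries.

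Promoter windows from RefSeq, from 250 bases before to 50 after a start site, were at hand for 53 members and for 16 of the 18 that passed. They are shown for the ligand, the antagonist and the receptor of largest change, for Csf1 as the member of highest level, and for Il33 as the member that fell. Capitals mark matches, on either strand, to the kB consensus of NF-kB, to the letters GAAANNGAA (of interferon regulatory factors), TTCNNNGAA (of STAT factors) or TGANTCA (of AP-1), where N is any base. Matches of different motifs were allowed to overlap.
Tnfsf10, GRCm38.p6 chr3:27316827-27317126, plus strand: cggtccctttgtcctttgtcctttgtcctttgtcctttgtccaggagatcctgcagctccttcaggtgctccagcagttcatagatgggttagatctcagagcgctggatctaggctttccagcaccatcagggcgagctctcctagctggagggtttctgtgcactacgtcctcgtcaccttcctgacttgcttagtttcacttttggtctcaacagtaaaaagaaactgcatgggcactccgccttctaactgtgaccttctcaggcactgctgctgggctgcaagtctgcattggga
Il18bp, GRCm38.p6 chr7:102018183-102018482, minus strand: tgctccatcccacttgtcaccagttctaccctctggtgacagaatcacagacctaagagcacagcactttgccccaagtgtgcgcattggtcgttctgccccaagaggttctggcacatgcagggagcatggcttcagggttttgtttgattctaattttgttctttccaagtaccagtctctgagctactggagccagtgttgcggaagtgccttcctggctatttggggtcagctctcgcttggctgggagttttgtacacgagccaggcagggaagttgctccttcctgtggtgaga
Osmr, GRCm38.p6 chr15:6874264-6874563, minus strand: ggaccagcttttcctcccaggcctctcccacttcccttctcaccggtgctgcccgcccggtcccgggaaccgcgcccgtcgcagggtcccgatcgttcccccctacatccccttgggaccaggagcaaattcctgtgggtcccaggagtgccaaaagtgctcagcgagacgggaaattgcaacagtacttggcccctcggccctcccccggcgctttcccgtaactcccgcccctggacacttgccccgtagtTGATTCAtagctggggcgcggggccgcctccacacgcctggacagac
Csf1, GRCm38.p6 chr3:107760420-107760719, minus strand: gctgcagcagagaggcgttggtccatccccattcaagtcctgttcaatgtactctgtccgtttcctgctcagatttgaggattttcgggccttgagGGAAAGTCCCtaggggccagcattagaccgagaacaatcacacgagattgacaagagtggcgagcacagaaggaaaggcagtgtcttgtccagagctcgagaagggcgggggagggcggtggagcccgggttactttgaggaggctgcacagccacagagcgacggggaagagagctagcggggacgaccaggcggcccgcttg
Il33, GRCm38.p6 chr19:29924863-29925162, plus strand: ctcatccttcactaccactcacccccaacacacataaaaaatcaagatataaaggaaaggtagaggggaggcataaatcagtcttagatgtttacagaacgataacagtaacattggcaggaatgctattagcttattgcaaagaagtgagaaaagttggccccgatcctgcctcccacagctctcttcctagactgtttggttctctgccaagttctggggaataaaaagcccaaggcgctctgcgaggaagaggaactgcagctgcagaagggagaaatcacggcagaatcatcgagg
Csf1 held 1 kB match, beginning 154 bases before its start site. Osmr held 1 match to the letters TGANTCA, with T at N, just after its start site. No transcript start of the GENCODE basic set lies in the Osmr window. None of the 4 motifs was found in these windows of Tnfsf10, Il18bp and Il33. Il33 has 2 windows in the table, and the one shown holds 1 annotated transcript start. Among the 16 members, at least 1 window held the kB consensus in 1 (Csf1), the interferon factor letters in 4 (Csf2, Il15ra, Tnfrsf14 and Tnfrsf1b), the STAT letters in 2 (Tnfrsf1a and Tnfrsf1b) and the AP-1 letters in 5 (Il15ra, Il1rn, Il22ra1, Lif and Osmr). Among 20 tested members that did not pass and have a window, the kB consensus was held by 3, the interferon factor letters by 2, the STAT letters by 3 and the AP-1 letters by 2. Of all 32851 windows, 4.51% held the kB consensus, 8.56% the interferon factor letters, 8.30% the STAT letters and 7.81% the AP-1 letters. A gene with several windows had more chances to match.

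Tnfsf10 encodes TRAIL, which binds death receptors on the surface of target cells (ENSMUSG00000039304, chr3:27317028-27342427 in GRCm38, the build of all positions given). It stood at 32.8 and 36.8 CPM in Chrna4 libraries and at 7.88 and 6.30 CPM in Control libraries. The groups lay far apart, and the log2 fold change was 2.15 (SE 0.12, adjusted p = 4.98e-07 by limma). All fold changes by limma are of log2(CPM + 1), so those of low genes are understated. The other TNF superfamily ligands tested, Tnfsf12 and Tnfsf9, did not pass. Tnfsf12, the TWEAK ligand gene, had 4.16 and 2.85 CPM in Chrna4 libraries and 5.27 and 5.53 CPM in Control libraries (log2 -0.52, 95% interval -0.91 to -0.14, adjusted p = 0.0661 by limma). It lies in a locus that shares 731 of its 1515 exon bases with the fusion gene Tnfsfm13, so its count is uncertain, and it passed as lower without Control 1 (adjusted p = 0.0387), without Chrna4 1 (0.0279) and with library totals as scaling (0.0468). Tnfsf9, which encodes 4-1BB ligand, had 6.47 and 5.03 CPM in Chrna4 libraries and 5.48 and 5.99 CPM in Control libraries, and the groups overlapped.

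Among interleukin 1 family members past the threshold, 2 antagonists rose and 1 ligand fell. The ligand gene Il1f9, also higher in Chrna4 libraries but under the minimum of 1 CPM, is described below. Il18bp encodes the secreted protein that captures interleukin 18 (ENSMUSG00000070427, chr7:102014885-102018690). It had 42.4 and 36.8 CPM in Chrna4 libraries, against 12.7 and 10.6 CPM in Control libraries (log2 1.68, SE 0.11, adjusted p = 1.55e-06 by limma). Il1rn, the interleukin 1 receptor antagonist gene (ENSMUSG00000026981, chr2:24336853-24351494), averaged 44.1 ± 5.95 CPM in Chrna4 libraries and 22.9 ± 0.381 CPM in Control libraries (SD, n = 2 each; log2 0.91, SE 0.10, adjusted p = 5.54e-05 by limma). Its Chrna4 libraries, at 39.9 and 48.3 CPM, were less alike than its Control libraries, at 22.7 and 23.2 CPM. The alarmin gene Il33 (ENSMUSG00000024810, chr19:29925114-29960718), whose protein is held in the nucleus and released from damaged cells, was at 34.5 and 29.9 CPM in Chrna4 libraries and at 47.2 and 48.4 CPM in Control libraries. That is a log2 fold change of -0.56 (SE 0.09, adjusted p = 0.000895 by limma). Il18 itself had 3.45 and 1.96 CPM in Chrna4 libraries and 1.39 and 1.58 CPM in Control libraries, and did not pass (log2 0.55, 95% interval 0.06 to 1.04, adjusted p = 0.124 by limma).

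Among growth and differentiation factors of blood cells, Csf1, which sustains macrophages (ENSMUSG00000014599, chr3:107741048-107760469), had the highest level of all members in CPM. It stood at 429.8 and 429.7 CPM in Chrna4 libraries, against 224 and 237 CPM in Control libraries. The difference within groups was small beside that between them (log2 0.90, SE 0.06, adjusted p = 8.89e-07 by limma). Il34, the other ligand of the CSF1 receptor, had 16.8 and 16.6 CPM in Chrna4 libraries and 16.6 and 13.8 CPM in Control libraries. Its groups overlapped (log2 0.13, 95% interval -0.12 to 0.38). Csf2, which encodes the granulocyte-macrophage factor GM-CSF (ENSMUSG00000018916, chr11:54247271-54249667), received 63 and 90 reads in Chrna4 libraries and 26 and 10 reads in Control libraries. It rose 4.41-fold (log2 1.16, SE 0.24, adjusted p = 0.00596 by limma, or log2 2.13 by edgeR), and the call was lost without Chrna4 2 (adjusted p = 0.0648).

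Lif, a cytokine of the interleukin 6 family (ENSMUSG00000034394, chr11:4257557-4272514), rose 1.75-fold. It had 77.6 and 77.1 CPM in Chrna4 libraries and 46.1 and 42.4 CPM in Control libraries (log2 0.79, SE 0.07, adjusted p = 1.44e-05 by limma). Il15, which sustains natural killer and memory T cells (ENSMUSG00000031712, chr8:82331632-82403222), was low, at 3.87 and 2.72 CPM in Chrna4 libraries and 1.14 and 1.05 CPM in Control libraries. It rose 3.01-fold (log2 1.02, SE 0.20, adjusted p = 0.0050 by limma, or log2 1.59 by edgeR), a call lost without Chrna4 1 (adjusted p = 0.0758). Il7, a lymphocyte growth factor, had 11.1 and 11.8 CPM in Chrna4 libraries and 9.85 and 6.92 CPM in Control libraries. The groups did not overlap, and the adjusted p was 0.0839 by limma, or 0.000368 without Control 1. Il4, a cytokine of T helper cells, was close to the minimum, with 30 and 27 reads in Chrna4 libraries and 25 and 48 reads in Control libraries.

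**Figure D2:**
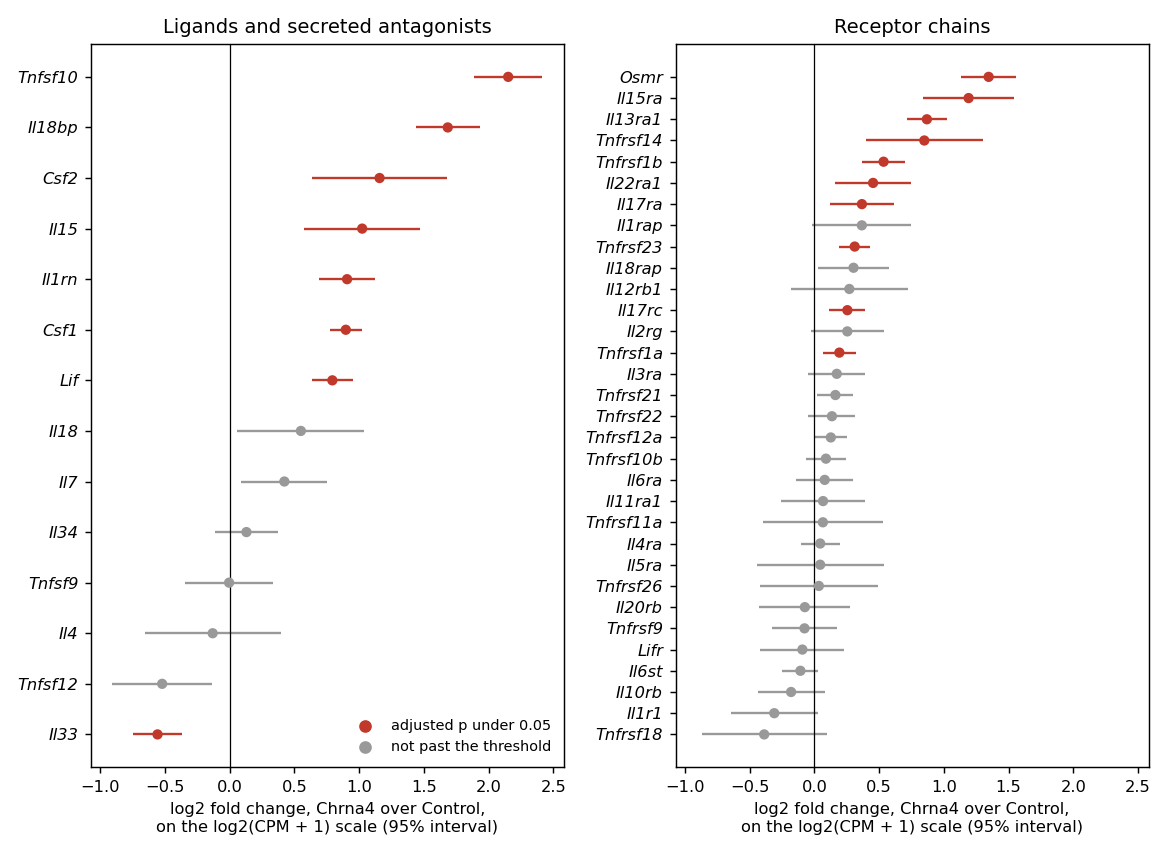
Log2 fold change, Chrna4 over Control, with its 95% interval (horizontal axis, log2(CPM + 1) scale) for the 14 ligands and antagonists (left) and the 32 receptor chains (right) tested; red marks passed an adjusted p of 0.05. Points of ligands run from -0.56 for Il33 to 2.15 for Tnfsf10, and those of receptors from -0.39 for Tnfrsf18 to 1.35 for Osmr.

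Of the receptors, Osmr changed most. It encodes the chain that joins gp130 to bind oncostatin M (ENSMUSG00000022146, chr15:6813577-6874969). Its level was 34.8 and 31.8 CPM in Chrna4 libraries and 12.7 and 12.3 CPM in Control libraries, a 2.67-fold rise (log2 1.35, SE 0.10, adjusted p = 2.51e-06 by limma). Its partner gp130 did not pass, nor did Lifr, which also pairs with gp130. Il6st, which encodes gp130, had 151 and 157 CPM in Chrna4 libraries and 158 and 174 CPM in Control libraries (log2 -0.11, 95% interval -0.25 to 0.03), and passed as lower without Control 1 (adjusted p = 0.00732). Lifr, the receptor chain for Lif, was at 4.58 and 4.75 CPM in Chrna4 libraries and at 4.83 and 5.25 CPM in Control libraries (log2 -0.09, 95% interval -0.42 to 0.23). The interleukin 6 receptor gene Il6ra had 19.31 and 20.04 CPM in Chrna4 libraries and 17.5 and 19.7 CPM in Control libraries, and its groups overlapped. Il11ra1, the interleukin 11 receptor gene, stood at 5.20 and 5.22 CPM in Chrna4 libraries and at 4.65 and 5.22 CPM in Control libraries. A near-identical copy, Il11ra2, makes the counts of both uncertain.

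Il15ra, the chain that presents interleukin 15 to neighbouring cells (ENSMUSG00000023206, chr2:11705290-11734317), rose 2.58-fold. It had 10.3 and 14.4 CPM in Chrna4 libraries, against 4.47 and 5.10 CPM in Control libraries (log2 1.19, SE 0.16, adjusted p = 0.000316 by limma). Il13ra1, which joins the interleukin 4 receptor chain to bind interleukins 4 and 13 (ENSMUSG00000017057, chrX:36112110-36171259), averaged 113 ± 3.83 CPM in Chrna4 libraries and 61.7 ± 4.22 CPM in Control libraries (SD, n = 2 each; log2 0.87, SE 0.07, adjusted p = 5.58e-06 by limma). The partner gene Il4ra had 63.0 and 61.0 CPM in Chrna4 libraries and 58.9 and 61.2 CPM in Control libraries, with overlapping groups (log2 0.05, 95% interval -0.10 to 0.19). Il2rg, the common gamma chain, stood at 10.4 and 12.2 CPM in Chrna4 libraries and at 9.92 and 8.65 CPM in Control libraries, and did not pass (adjusted p = 0.218 by limma). It shares 728 of its 2387 exon bases with the gene Gm20489.

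TNF receptors rose in part, 4 of 12 tested, against 9.26% of all tested genes. Tnfrsf1b, which encodes TNF receptor 2 (ENSMUSG00000028599, chr4:145213463-145246870), had 58.4 and 59.7 CPM in Chrna4 libraries and 38.8 and 42.2 CPM in Control libraries (log2 0.53, SE 0.08, adjusted p = 0.000444 by limma). Tnfrsf1a, the death-domain TNF receptor 1 (ENSMUSG00000030341, chr6:125349362-125362484), moved less, with 160 and 159 CPM in Chrna4 libraries and 142 and 137 CPM in Control libraries (log2 0.19, SE 0.06, adjusted p = 0.0407 by limma). That call was lost without Chrna4 1 (adjusted p = 0.311), without Chrna4 2 (0.305), with library totals (0.120) and with DESeq2 (0.0561). Tnfrsf23, a mouse decoy receptor for TRAIL (ENSMUSG00000037613, chr7:143665809-143685872), was at 297 and 299 CPM in Chrna4 libraries and at 239.8 and 240.1 CPM in Control libraries (log2 0.31, SE 0.05, adjusted p = 0.00189 by limma), a call lost without Chrna4 2 (adjusted p = 0.0561). Tnfrsf14, the herpesvirus entry mediator (ENSMUSG00000042333, chr4:154921933-154928563), had 110 and 109 reads in Chrna4 libraries and 64 and 36 reads in Control libraries. It rose by a log2 of 0.85 (SE 0.21, adjusted p = 0.0155 by limma), a call lost without Chrna4 1 (adjusted p = 0.0611) and without Chrna4 2 (0.0511).

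The TNF receptor of highest CPM after Tnfrsf23 was Tnfrsf12a, which encodes the TWEAK receptor Fn14. It had 202 and 197 CPM in Chrna4 libraries and 187 and 178 CPM in Control libraries, and did not pass (log2 0.13, 95% interval 0.00 to 0.25, adjusted p = 0.165 by limma), except without Control 1 (adjusted p = 0.00985). Tnfrsf10b, the mouse TRAIL death receptor, stood at 64.0 and 61.4 CPM in Chrna4 libraries and at 57.7 and 60.1 CPM in Control libraries (log2 0.09, 95% interval -0.06 to 0.24). Tnfrsf22, a second decoy for TRAIL beside Tnfrsf23 on chromosome 7, had 113 and 126 CPM in Chrna4 libraries and 99.96 and 118 CPM in Control libraries. Tnfrsf22, Tnfrsf23 and Tnfrsf26 are close paralogs, and no source used here says how reads matching several of them were counted. The death-domain receptor gene Tnfrsf21 had 98.5 and 104 CPM in Chrna4 libraries and 89.2 and 91.6 CPM in Control libraries (adjusted p = 0.108 by limma). Tnfrsf22 and Tnfrsf21 passed as higher without Control 3 (adjusted p = 0.000214 and 0.0185). The 4-1BB gene Tnfrsf9 had 11.8 and 11.7 CPM in Chrna4 libraries and 11.9 and 13.1 CPM in Control libraries (adjusted p = 0.708 by limma). Tnfrsf18, Tnfrsf26 and Tnfrsf11a were each under 3 CPM in every library and did not pass.

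Receptor chains for interleukin 17 and interleukin 22 made up the rest of the increases, and these were small. Il17rc and Il17ra encode the chains that together bind interleukin 17. Il17rc (ENSMUSG00000030281, chr6:113471427-113483140) had 93.3 and 97.9 CPM in Chrna4 libraries and 80.8 and 79.0 CPM in Control libraries (log2 0.25, SE 0.06, adjusted p = 0.0178 by limma). Il17ra (ENSMUSG00000002897, chr6:120463247-120487559) had 17.5 and 18.6 CPM in Chrna4 libraries and 12.7 and 14.95 CPM in Control libraries (log2 0.37, SE 0.11, adjusted p = 0.0459 by limma). Il22ra1, the interleukin 22 receptor of epithelia (ENSMUSG00000037157, chr4:135728172-135752140), had 24.7 and 24.2 CPM in Chrna4 libraries and 14.8 and 20.9 CPM in Control libraries (log2 0.45, SE 0.14, adjusted p = 0.0414 by limma). All 3 calls were lost without Chrna4 1 (adjusted p = 0.0837 for Il17rc, 0.0971 for Il17ra and 0.0764 for Il22ra1) and without Chrna4 2 (0.254, 0.259 and 0.0565 in the same order). Those of Il17ra and Il22ra1 were also lost without Control 1 (adjusted p = 0.133 and 0.153), with library totals (0.0777 and 0.0680) and without the minimum of 1 CPM (0.0711 and 0.0612), and that of Il17ra with DESeq2 (0.0966). Il10rb, the partner chain of Il22ra1, stood at 9.65 and 9.43 CPM in Chrna4 libraries and at 11.4 and 10.5 CPM in Control libraries (adjusted p = 0.350 by limma). It shares 569 of its 3808 exon bases with the gene Gm21970 on the same strand.

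The tested receptor chains of the interleukin 1 family stood between 2.32 and 18.3 CPM. Il1r1, the signalling receptor of interleukin 1, had 3.87 and 4.30 CPM in Chrna4 libraries and 5.60 and 5.01 CPM in Control libraries (log2 -0.31, 95% interval -0.64 to 0.03, adjusted p = 0.205 by limma). Il1rap, its accessory chain, had 3.61 and 3.74 CPM in Chrna4 libraries and 2.96 and 2.32 CPM in Control libraries (log2 0.37, 95% interval -0.02 to 0.75, adjusted p = 0.189 by limma). Il18rap, the accessory chain of the interleukin 18 receptor, had 14.8 and 18.3 CPM in Chrna4 libraries and 12.2 and 14.1 CPM in Control libraries, with an adjusted p of 0.131 by limma, or of 0.0156 without Control 3. The interleukin 3 receptor chain gene Il3ra, at 17.7 CPM in each of the Chrna4 libraries and at 15.2 and 16.0 CPM in the Control libraries, did not pass either (adjusted p = 0.280 by limma). Il5ra, Il12rb1 and Il20rb stood between 1.08 and 5.27 CPM in all libraries and were not called. Il4i1, the enzyme gene, had 3.87 and 3.55 CPM in Chrna4 libraries and 3.66 and 2.78 CPM in Control libraries, and 3423 of its 4080 exon bases overlap Tbc1d17 on the other strand.

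**Figure D3:**
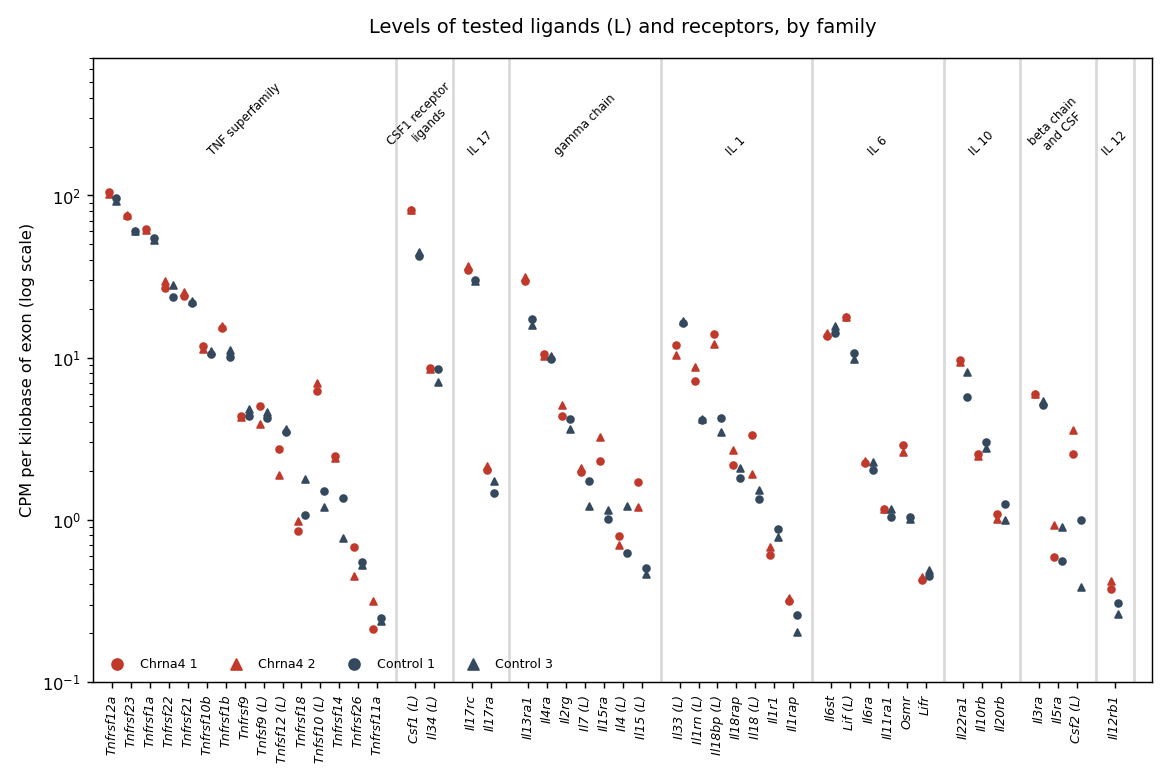
CPM per kilobase of exon on a log scale (vertical axis) of the 46 tested ligands, marked L, and receptors, ordered within families by the Control level; red marks are Chrna4 libraries and dark marks Control libraries. Tnfrsf12a is highest, at 103 in Chrna4 and 94.6 in Control libraries on average.

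Levels of different genes can be compared per kilobase of exon. On that scale the members of highest mean in the Chrna4 libraries were Tnfrsf12a (103 CPM per kilobase), Csf1 (81.4), Tnfrsf23 (75.2), Tnfrsf1a (61.6), Il17rc (35.8) and Il13ra1 (30.5), against 94.6, 43.6, 60.6, 53.8, 29.9 and 16.6 CPM per kilobase in the Control libraries, in the same order. Tnfrsf12a, Tnfrsf23 and Tnfrsf1a are receptors, and Csf1 was the only ligand among these 6. Csf1 was below Tnfrsf23 and Tnfrsf1a in both Control libraries and above them in both Chrna4 libraries.

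Ratios of levels per kilobase within a library set a ligand beside its receptor, or a member beside a related member. They were computed for 24 combinations chosen after the values had been seen, and are a description, since with 2 libraries against 2 the smallest exact two-sided permutation p is 0.333. In 18 of the 23 combinations with a value in every library the groups did not overlap, and in 5 they did. Of single tested genes, 28.7% lay above and 28.8% below in the Chrna4 libraries without overlap, so this count is not a result about these genes. Tnfsf10 over its death receptor Tnfrsf10b was 0.531 and 0.621 in Chrna4 libraries, against 0.141 and 0.109 in Control libraries. The antagonist Il1rn over the receptor Il1r1 was 11.8 and 12.9 in Chrna4 libraries, against 4.65 and 5.33 in Control libraries. The cytokine Il18 over its antagonist Il18bp was 0.238 and 0.156 in Chrna4 libraries, against 0.319 and 0.438 in Control libraries. Among chains that pair with gp130, Osmr over Lifr was 6.76 and 5.96 in Chrna4 libraries, against 2.33 and 2.09 in Control libraries. Il13ra1 over Il4ra was 2.84 and 3.08 in Chrna4 libraries, against 1.77 and 1.55 in Control libraries. Il15 over Il15ra, at 0.738 and 0.372 in Chrna4 libraries and 0.502 and 0.405 in Control libraries, overlapped between the groups, with both genes called as higher.

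The other 21 members, 12 ligands and 9 receptor chains, had a mean under 1 CPM and were not part of the limma fit. A count test on recovered reads of all listed genes (edgeR) called 13.7% of 13422 genes (7.99% higher and 5.67% lower). Of all 68 members it called 18 as higher and 1 as lower. Of these 21 it called 1, Il24. An unadjusted p under 0.05 by edgeR was reached by 4 of them, and the share of all genes at that level was not computed. The limma fit without the minimum of 1 CPM gave adjusted p-values of 0.0174 for Il24, 0.0263 for Il1f9 and 0.0385 for Il6. All 3 ligands thus passed as higher there. Of all 13422 genes, that fit called 1031 as higher and 708 as lower. Il24, a cytokine of the interleukin 10 family, received 50 and 33 reads in Chrna4 libraries and 17 and 7 reads in Control libraries. The ratio of summed reads was 3.60, with an exact 95% interval of 2.26 to 5.92 that covers counting error only (log2 1.84, adjusted p = 0.0355 by edgeR). The call was lost without Control 3 (adjusted p = 0.0839), without Chrna4 1 (0.336) and without Chrna4 2 (0.0697). Il6, the founding ligand of its family, had 23 and 37 reads in Chrna4 libraries and 14 and 0 reads in Control libraries (ratio 4.46, interval 2.46 to 8.64, adjusted p = 0.141 by edgeR), with the Control libraries unlike each other. Without Control 1, and so against a lone library at 0 reads, that adjusted p was 8.01e-05. Il1f9, which encodes interleukin 36 gamma, had 23 and 26 reads in Chrna4 libraries and 2 and 9 reads in Control libraries (ratio 4.63, interval 2.38 to 9.88, adjusted p = 0.0784 by edgeR), and passed without Control 3 (adjusted p = 0.0103).

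Csf2ra, the alpha chain of the GM-CSF receptor, had 7 and 5 reads in Chrna4 libraries and 0 in both Control libraries (adjusted p = 0.0873 by edgeR). Against a floor of 3 reads over the Control group its observed ratio was 4.16. The exact 95% interval of the ratio, covering counting error only, began at 2.89. Il27, a subunit of interleukin 27, had 0 and 10 reads in Chrna4 libraries and 0 in both Control libraries. The lowest total of any listed gene was 10 reads. With 0 Control reads, Csf2ra and Il27 had a row only through their Chrna4 libraries, so their direction is not a result. Il23a, the p19 subunit of interleukin 23, had 7 and 11 reads in Chrna4 libraries and 18 and 20 reads in Control libraries (ratio 0.493, interval 0.265 to 0.884, adjusted p = 0.391 by edgeR). Il1rl1, the receptor of interleukin 33, had 10 and 29 reads in Chrna4 libraries and 22 and 31 reads in Control libraries, so its groups overlapped. Tnfsf13, the APRIL ligand gene, had 26 and 12 reads in Chrna4 libraries and 31 and 30 reads in Control libraries, and shares 983 of its 1637 exon bases with the fusion gene Tnfsfm13. In Il17re, a receptor of interleukin 17C, and in Tnfrsf19 and Il17rd the groups overlapped as well. The remaining 10 members under 1 CPM were Il12rb2, Tnfrsf4, Il1a, Csf3, Il17d, Il11, Tnfsf18, Il11ra2, Tnfsf13b and Il17rb, of which the last 8 had at most 10 reads in any library.

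**Figure D4:**
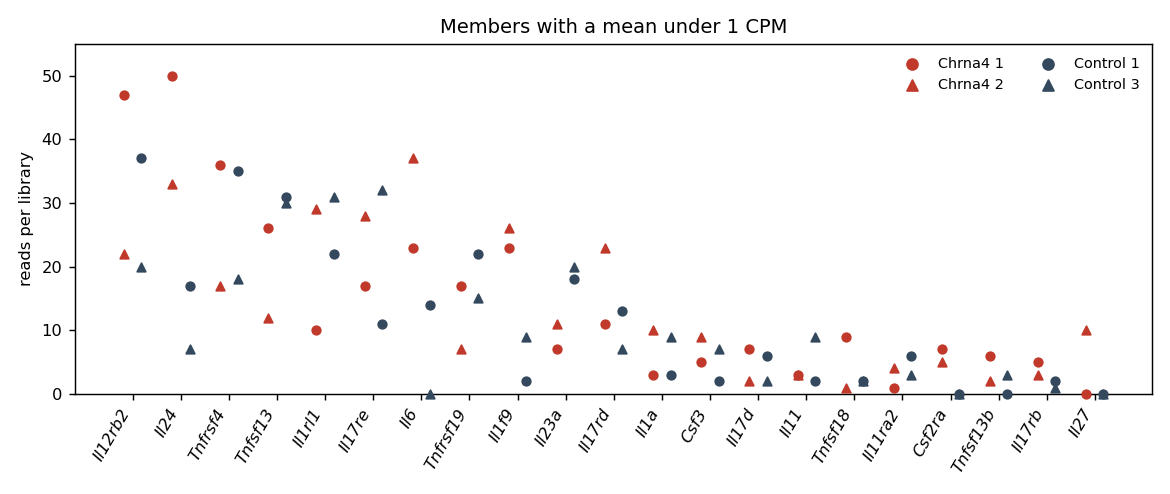
Reads per library (vertical axis) of the 21 members with a mean under 1 CPM, in order of mean level; red marks are Chrna4 libraries and dark marks Control libraries. Il24, Il6, Il1f9, Csf2ra and Il17rb have all Chrna4 libraries above all Control libraries, and Il23a and Tnfsf13 have them all below. In Chrna4 libraries Il24 has 33 or more reads, Il6 and Il1f9 have 23 or more, and Csf2ra and Il17rb have 7 or fewer. Csf2ra, with 0 Control reads, has a row only through its Chrna4 libraries. Among the 11298 tested genes, to which these 21 do not belong, 28.7% lie above and 28.8% below without overlap.

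Genes of the same pathways outside the symbol rule were counted from lists chosen with earlier results known, against the same 15.9% of all tested genes called. Of 24 tested adaptors and effectors of TNF receptors, 8 rose and the other 16 did not pass (median log2 0.16). Rnf31, a subunit of the linear ubiquitin ligase, had 151 and 149 CPM in Chrna4 libraries and 102 and 106 CPM in Control libraries. The inhibitor of NF-kB signalling Tnfaip3 had 252 and 262 CPM in Chrna4 libraries and 144 and 178 CPM in Control libraries. Birc3 (log2 0.59), whose protein is an inhibitor of apoptosis, and Traf5 (log2 0.56), an adaptor, also rose. Of 16 adaptors of interleukin 1 and Toll-like receptors 5 rose (median log2 0.18), among them Myd88, the shared adaptor, with 63.9 and 71.0 CPM in Chrna4 libraries and 38.3 and 37.4 CPM in Control libraries, and the ubiquitin ligase gene Peli1 (log2 0.63).

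A list of genes known as targets of the interleukin 6 family in hepatocytes held 20 genes, of which 11 had a row. Acute-phase genes without a row included Fga, Fgb, Fgg, Saa1 and Saa2. Of the 10 tested, 5 rose and 1 fell (median log2 0.29). Saa3, an acute-phase gene, had 40.6 and 35.7 CPM in Chrna4 libraries and 12.97 and 9.86 CPM in Control libraries, and Lcn2, the lipocalin of the acute phase, 38.9 and 30.8 CPM in Chrna4 libraries and 13.95 and 14.8 CPM in Control libraries. Cish, a feedback inhibitor of cytokine receptors (log2 0.77), and Bcl3 (log2 0.45) rose as well. The decrease was in Lbp, the lipopolysaccharide-binding protein gene (log2 -0.35, adjusted p = 0.00889 by limma). Socs3 (log2 0.23, adjusted p = 0.0594 by limma), Orm1 (log2 0.26), Junb (log2 0.08) and Hp (log2 -0.14) did not pass. Of 6 TNF superfamily genes named otherwise, 2 rose, the death receptor gene Fas (log2 0.52) and the ectodysplasin receptor gene Eda2r (log2 0.33). Of 7 other cytokine and receptor genes 1 fell, Kitl, the stem cell factor gene, with 198 and 188 CPM in Chrna4 libraries and 272 and 218 CPM in Control libraries. Of 6 genes for shedding of cytokines and receptors, Rhbdf2, a regulator of TNF release, rose (log2 0.44) and the protease gene Adamts1 fell (log2 -0.38).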

How the data were processed

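The authors deposited 1 table of 13422 genes, which per the file headers holds a signal for each gene and library and their own comparison (log2 fold changes, log2 of the mean CPM, p-values and adjusted p-values). TopHat2, HTSeq and mm10/GRCm38 are named in the submitters' processing notes, without settings. No source used here says whether strand was used in counting, so overlapping antisense genes cannot be told apart. The deposited signal is a CPM of a scaled library size. In every column 100% of values were whole multiples of the value of 1 read within 0.01 reads, and TMM scaling recomputed from those reads matched the deposited scaling in all 4 libraries.

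From these values limma-trend (limma 3.58.1, R 4.3.3) was fitted to log2(CPM + 1) of the 11298 genes whose mean reached 1 CPM. P-values were adjusted by Benjamini-Hochberg over all of them, at a threshold of 0.05. Each gene had 2 residual degrees of freedom and 9.55 were borrowed from the other genes. Because the values were not raw counts, edgeR 4.0.16 and DESeq2 1.42.0 on recovered reads stood as alternatives, beside other scalings, minima, pseudocounts and thresholds, and each library left out. Groups follow the plasmid named in the labels. Positions, exon lengths and overlaps come from GENCODE M21 (GRCm38), in which all 68 members were found. Promoter windows come from RefSeq (GRCm38.p6). Named in full were all members that passed limma or edgeR, the 12 others of highest CPM, and of the 21 lowest those with most reads, and from each further list up to 4 called genes. The count tests of the lowest members with 1 library left out were added after seeing the data. Members outside that rule were named after their values were seen. The members, lists and tests were chosen with earlier results of these data known.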

Additional observations from a re-analysis of the deposited data

How the results depend on the processing

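No paired analysis was possible because the groups share only the replicate number 1. The 18 members past the threshold kept their direction under every alternative run, and 10 of them also kept an adjusted p under the threshold: Csf1, Il13ra1, Lif, Tnfrsf1b, Il33, Il1rn, Il18bp, Osmr, Tnfsf10 and Il15ra. Leaving out 1 library each gave 10 to 20 members higher and 1 to 3 lower, 6 to 8 ligands higher and 1 to 2 lower, 4 to 13 receptors higher and 0 to 1 lower, and over all genes 604 to 1712 higher and 324 to 1296 lower. With library totals 2 members fell, both of them ligands, and 1179 of all genes were lower, against 812 higher. The median of all genes then moved to -0.05. At a threshold of 0.01, 5 receptors rose, and 670 of all genes were higher and 293 lower, as fewer genes pass a stricter threshold. Of members not past the threshold, the sign of the log2 fold change turned for Il4ra with library totals (-0.0079) and for Tnfsf9 by edgeR (0.0025) and by DESeq2 (0.0044). Leaving out 1 library also turned it for some, with ranges of -0.1584 to 0.1497 for Tnfsf9, -0.0030 to 0.1630 for Il6ra, -0.0022 to 0.1368 for Il11ra1, -0.2120 to 0.0651 for Il20rb, -0.1997 to 0.2895 for Il5ra, -0.1511 to 0.2207 for Tnfrsf26, -0.1112 to 0.2431 for Tnfrsf11a and -0.3755 to 0.1129 for Il4. Other causes of these changes were not tested. With 1 library left out the fit has 1 residual degree of freedom, and the lone library is assumed to vary like the others. The error estimate then rests on the group that keeps 2 libraries. For Csf1 the SE was 0.0561 with all libraries, 0.0455 without Control 1 and 0.0456 without Control 3. It was 0.104 without Chrna4 1 and also without Chrna4 2. Calls gained or lost there, also those given above for single members, may thus reflect this changed estimate. It was not told apart from the left-out library's values. The adjusted p-values of such fits do not measure how sure a call is.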

Other observations

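Some members differed between libraries of a group by more than between groups. Il5ra, a chain of the interleukin 5 receptor, received 65 and 105 reads in Chrna4 libraries and 65 and 104 reads in Control libraries. Il12rb2, a chain of the interleukin 12 receptor, had 47 and 22 reads in Chrna4 libraries and 37 and 20 reads in Control libraries, and 1519 of its 3794 exon bases overlap Serbp1 on the other strand. Tnfrsf4, the OX40 gene, had 36 and 17 reads in Chrna4 libraries and 35 and 18 reads in Control libraries. The cause was not tested.

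In the authors' deposited table, adjusted p-values were 0.0231 for Csf2ra, 0.00223 for Il1f9, 0.0445 for Tnfsf12, 0.0521 for Il6 and 0.00141 for Il24. By edgeR on the recovered reads they were 0.0873, 0.0784, 0.0786, 0.141 and 0.0355 in the same order. The fold changes of the authors' deposited table, with the sign turned so that positive means higher in Chrna4, were 2.18 for Il1f9 and -0.62 for Tnfsf12 on the log2 scale, and 2.18 and -0.62 by edgeR.

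Between the Chrna4 libraries the median absolute log2 difference over the 47 tested members was 0.0899, against 0.0702 over all tested genes. Between the Control libraries it was 0.134, against 0.104 over all tested genes. The member that differed most within a group was Il18 in the Chrna4 libraries (log2 0.59, Chrna4 1 minus Chrna4 2) and Tnfrsf18 in the Control libraries (log2 -0.50, Control 1 minus Control 3).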
